A study of Arabidopsis thaliana and Brassica oleracea with 14 samples.

Results

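Among the 288 measured and 96 low-signal position pairs of a leaf macroarray, 63 gave a signal on every array of droughted Brassica oleracea and on at most 1 array of watered B. oleracea. In a macroarray, DNA probes fixed on a membrane capture leaf cDNA that carries a radioactive label. A position pair is a pair of adjacent spots that were read here as 1 probe, although the spotting layout is not given. How alike the signals of such spots were is described further below. The 63 are all among the 288. The 96 form the low block (rows B, D, F, H, J, L, N and P, columns 25 to 48), which stands in for blank spots. Each array's limit was the 95th percentile of these 96 pairs, and a pair counted as above it when the mean of its spots, as total minus background intensity (net signal, in imager units), exceeded that limit. The 63 pairs, 21.9% of the 288, were chosen by the net signals of the 7 B. oleracea arrays, so those values describe the 63 pairs and test nothing. The 7 Arabidopsis thaliana arrays took no part in the choice.

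The arrays fall into 4 groups, namely 3 of droughted and 4 of watered B. oleracea (alboglabra line A12DH), and 3 of droughted and 4 of watered A. thaliana (Col-0). Plants were 4 weeks old under a 16 h photoperiod, and drought was 5 days without water, until leaf relative water content averaged 45% with a spread of 15. RNA came from leaves of 5 plants at a time, corresponding extracts were pooled, and no label links an array to separate plants, so the spread behind a p-value here may be technical. No gene is paired with a position in the files, so no gene name, sequence or leaf marker could be attached to the 63 pairs, and results are given by row and column of the membrane.

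In a drying leaf, abscisic acid accumulates and binds receptors that inhibit clade A PP2C protein phosphatases. This releases SnRK2 kinases, which act on stomata and on transcription factors of dehydration genes. The series title names PP2C genes, several of which in A. thaliana are themselves induced by abscisic acid and so act as a brake on the pathway. A. thaliana is the reference species of the family and B. oleracea a crop relative whose ancestor went through further genome multiplication. Probes may hybridise unequally with cDNA of different species, so levels are compared between treatments within a species.

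The limit lay at 6.85, 4.77 and 15.2 units on the B. oleracea drought arrays and at 6.11, 6.92, 5.02 and 5.83 units on the controls. On the A. thaliana arrays it was 7.17, 128 and 62.9 units under drought and 35, 39, 59.3 and 45.9 units in controls. Median image background was 101, 85.7 and 731 units on B. oleracea drought arrays and 97.2 to 115 units on their controls. It was 142, 0 and 2086 units on A. thaliana drought arrays and 2202 to 2465 units on their controls. A. thaliana drought replicate 2, with a deposited background of 0 at every spot, and control replicate 3, with bright signal over most of the membrane, stand apart.

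On the B. oleracea drought arrays most of the 63 pairs were dim. Their median net signal was 26, 15 and 30.9 units on the 3 drought arrays, against 2.75, 1.25, 1.47 and -0.0650 units on the 4 controls. The ratio of net signal to limit, taken per pair as the median of the 3 drought arrays, ran from 1.18 to 11.4, with a median of 3.11. It was over 2 at 49 pairs, over 5 at 14 and over 10 at 1. A further 60 pairs were above the limit on all 3 drought arrays but also on 2 or more controls, and their median ratio was 13. By these medians the 63 pairs were dimmer than the 60, and none of them was among the 22 pairs that ranked in the brightest 38 of the membrane on all 3 drought arrays.

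Of the 63 pairs, 37 were above the limit on no control array and 26 on 1. Control replicate 1 accounts for 12 of these 26, control 3 for 7, control 4 for 4 and control 2 for 3. The other 225 pairs outside the low block were also above the limit more often on the drought arrays, at 64, 57.8 and 34.7% of pairs, against 42.2, 29.8, 36.4 and 23.1% on the controls. The drought and control values overlap there, since drought replicate 3 lies within the range of the controls.

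**Figure D1:**
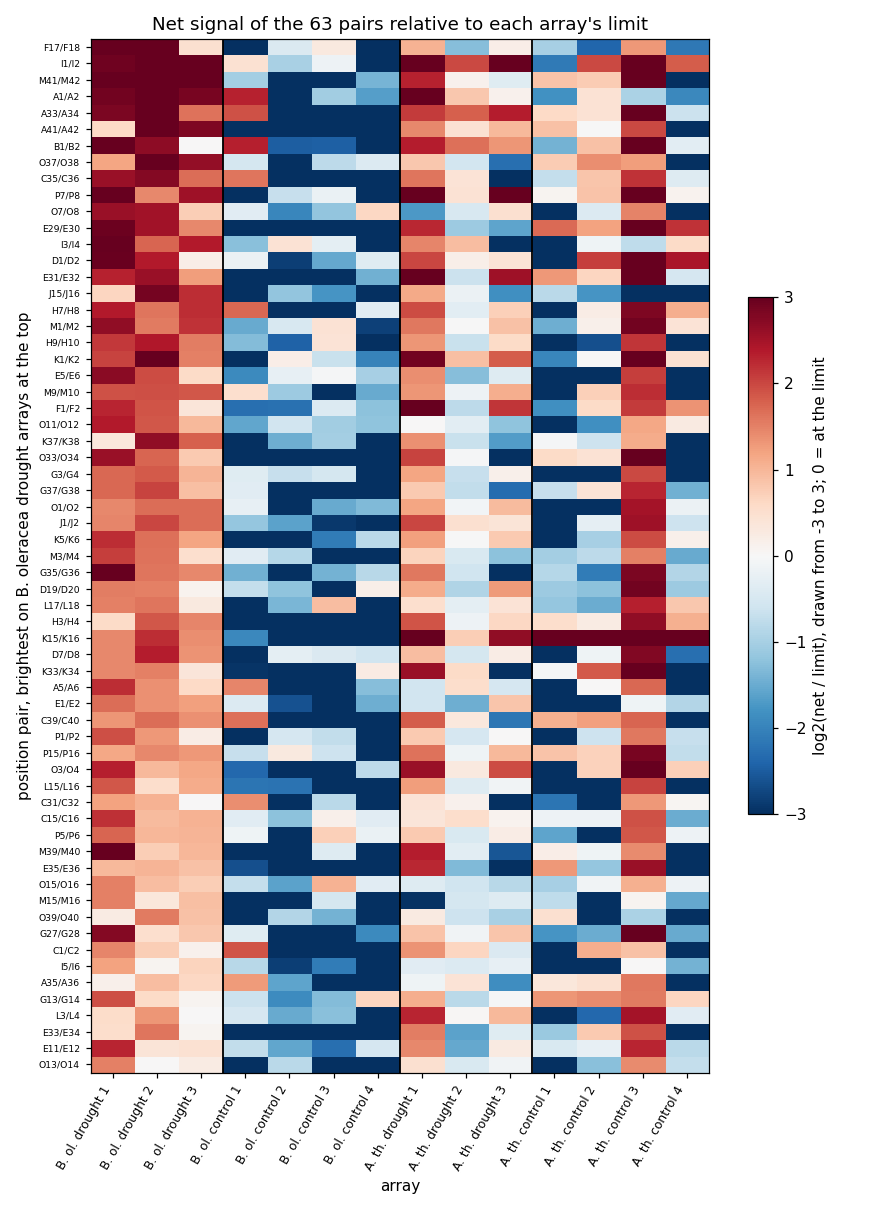
Net signal of the 63 pairs (rows) on the 14 arrays (columns), as log2 of net signal over the array's limit, drawn from -3 to 3. Red is above and blue below the limit. The B. oleracea columns show the choice itself, and among the A. thaliana columns drought replicate 1 and control replicate 3 are red at 56 and 58 of the 63 pairs.

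The brightest of the 63 by this ratio was F17/F18. Its net signal was 78.2, 55.3 and 21.3 units on the B. oleracea drought arrays, against -1.58, 5.13, 6.17 and -1.60 units on the controls. All 3 drought net signals stand above all 4 control net signals, and control 3 is the control above its limit. In normalized signal, drought replicate 3, at 6.03, lies below controls 2 and 3, at 6.11 and 6.24, so the groups overlap. In A. thaliana F17/F18 read 14.8, 53.2 and 72.6 units under drought. The controls read 17.6, 7.54, 147 and 10.4 units, and the groups overlap. Over the 7 A. thaliana arrays the pairs whose normalized signal was most like it were F21/F22, F15/F16 and H11/H12, with Pearson correlations of 0.965, 0.944 and 0.911, and none of these is among the 63.

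M41/M42, O37/O38 and A41/A42, on the right side of the membrane, were above the limit on no B. oleracea control. M41/M42 read 61, 44.1 and 134 units under drought and 3.00, -14.1, -5.87 and 2.23 units in controls. A41/A42 read 10.3, 87.8 and 106 units under drought and -23.8, -5.80, -3.02 and -8.04 units in controls. Drought replicate 1 was the dimmest of the drought arrays at A41/A42 and O37/O38, where O37/O38 had 15.5, 42.1 and 93.8 units under drought and 4.26, 0.580, 2.90 and 4.36 units in controls. In normalized signal, the log2 value after background correction and quantile normalization, the drought mean stood at least 1.57-fold above controls at M41/M42, 1.36-fold at A41/A42 and 1.25-fold at O37/O38. Such a bound sets the drought mean against the lowest signal among pairs above the limit on each control array, or the pair's own where that is higher. It concerns the observed means and carries no sampling error. It could be formed at the 37 pairs above the limit on no control and exceeded 1 at 18 of them. Its highest value was 1.57 at M41/M42, and for the rest of the 37 the arrays give no fold. At O37/O38 the groups overlap in normalized signal. Drought replicate 1, at 5.93, lies below controls 3 and 4, at 5.95 and 6.21.

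I1/I2, A1/A2, A33/A34 and B1/B2 were each above the limit on 1 control. I1/I2 read 51.8, 52 and 151 units under drought and 8.38, 3.53, 4.50 and -0.175 units in controls. A1/A2 read 50.9, 56 and 109 units under drought and 30.1, 0.555, 2.44 and 1.85 units in controls. Control replicate 1 is the array that stands above the limit at all 4 of these pairs. A33/A34 read 48.9, 88.3 and 46.6 units under drought and 22.9, -3.97, -3.79 and -2.38 units in controls. B1/B2 read 71.5, 30.8 and 15.2 units under drought and 30.8, 1.25, 0.925 and -2.35 units in controls. In net signal at B1/B2, control 1 was level with drought replicate 2 and exceeds drought replicate 3, so the groups overlap there. In normalized signal, control 1 read 6.98 at A1/A2, 6.75 at A33/A34 and 7.06 at B1/B2. The lowest drought values there were 6.47, 6.39 and 5.93, so on that scale the groups overlap at these pairs but not at I1/I2.

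B1/B2 was also the pair nearest the edge of the choice, just above the limit (ratio 1.0) on drought replicate 3. L3/L4, O13/O14 and C31/C32 followed, with lowest drought ratios of 1.01 at each of these. Just outside were B3/B4, G29/G30, G1/G2 and N13/N14, at 0.989, 0.955, 0.947 and 0.933 times the limit on drought replicate 3 and above it on the other 2 drought arrays. Drought replicate 3 decides most of this edge, because without it the same choice gives 105 pairs in place of 63, all 63 among them. Without drought replicate 1 or 2 it gives 68 and 70.

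On the normalized log2 scale, which fixes the distribution of signal to be the same on every array, 61 of the 63 pairs had a higher mean under drought in B. oleracea. Their median log2 change was 0.35, against -0.06 over all pairs of the membrane. limma called 0 of the 63 at an adjusted p under 0.05, as it did of all pairs (0%), and 13 were higher at an unadjusted p under 0.05, against 5.47% of all pairs, and 0 were lower, against 3.65%. This contrast chose the pairs, so nothing is read from these counts. G13/G14 and O15/O16 had changes of -0.13 and -0.11. At G13/G14 the normalized signal was 6.12, 5.85 and 5.94 under drought and 5.89, 5.87, 5.88 and 6.77 in controls, and control 4 was the brightest of the 7.

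In A. thaliana, which did not choose them, the 63 pairs overlapped between droughted and watered leaves. They were above the limit at 56, 22 and 34 of 63 pairs on the 3 drought arrays, and at 17, 28, 58 and 17 of 63 on the 4 controls. As shares these average 59.3% ± 27.4 (SD, n = 3) under drought and 47.6% ± 30.8 (SD, n = 4) in controls. The highest array is a control, and the array after it is drought replicate 1. The difference of 11.6 percentage points is smaller than the pooled SD of 29.4 between arrays of a group, which is not the error of a difference of means. The difference was 26.5 points without control 3, 23.8 without drought 2, 38.6 without both, and -3.17 without drought 1.

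The other pairs outside the low block gave 43.3% ± 9.0 under drought (SD, n = 3) and 38.2% ± 22.3 in controls (SD, n = 4), a difference of 5.04 points. The 60 pairs that were also above the limit in watered B. oleracea gave 80% ± 22 under drought and 67.5% ± 21 in controls, 12.5 points apart (SD, 3 and 4 arrays). Leaving out arrays moved these sets too. Without control 3 the difference was 16.1 points over the 225 and 22.8 over the 60, against the 26.5 of the 63. Without both control 3 and drought 2 it was 19.8 over the 225 and 35.3 over the 60, against the 38.6 of the 63. The share of the 63 pairs lay between those of these sets on 5 of 7 A. thaliana arrays, and slightly below the other pairs on drought replicate 2 and control replicate 1. No test was made between the sets of pairs.

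**Figure D2:**
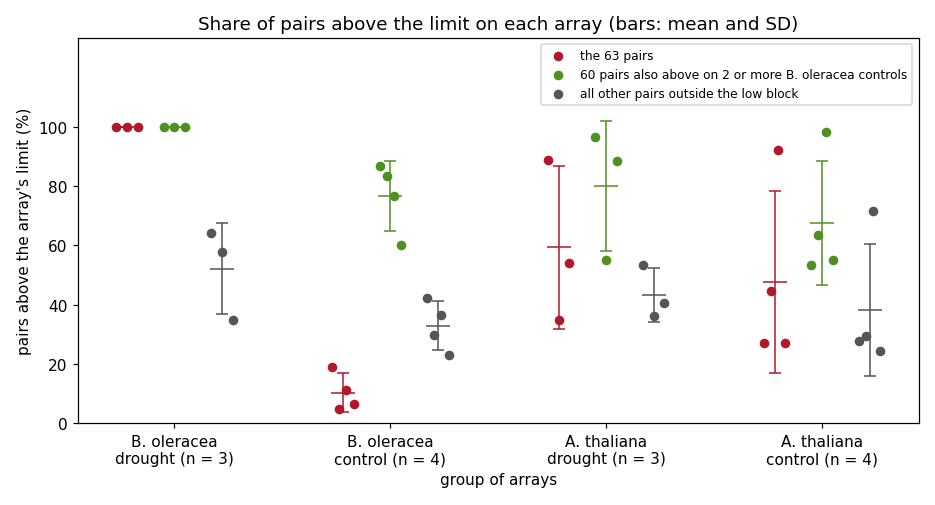
Share of pairs above the array's limit (%, vertical axis) in the 4 groups of arrays (horizontal axis), for the 63 pairs, the 60 pairs also above the limit on 2 or more B. oleracea controls, and all 225 other pairs, which include those 60. Points are arrays, and bars give the mean and SD. Values of the 63 pairs in B. oleracea follow from the choice, and in A. thaliana they span 34.9% to 88.9% under drought and 27% to 92.1% in controls.

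Each of the 63 pairs was above the limit on at least 1 A. thaliana array, while 27 of the 225 other pairs were above it on none. The 60 pairs also seen in watered B. oleracea were likewise each above it on at least 1. Without control replicate 3, 3 of the 63 and 50 of the 225 were above it on none of the 6 remaining arrays, as was 1 of the 60. By number of A. thaliana arrays, 5 of the 63 pairs were above the limit on 1 array, 8 on 2, 17 on 3, 14 on 4, 12 on 5, 5 on 6 and 2 on all 7. The pairs on all 7 were K15/K16 and P7/P8. Among the 60 pairs also seen in watered B. oleracea, 17 were above it on all 7. Signal at most of the 63 pairs was thus above the limit on some A. thaliana arrays and not on others.

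The pattern that chose the pairs in B. oleracea, above the limit on all 3 drought arrays and on at most 1 of 4 controls, recurred in A. thaliana at 4 of the 63. In the 288 pairs outside the low block it occurred at 6.25%, so the count of 4, or 6.35%, is near the background with all arrays. Without control 3 it was 7 of the 63 (11.1%), against 9.03% of the 288. Without drought 2 it was 14 (22.2%), against 14.2%, and without both it was 20 (31.7%), against 20.8%, so the share of the 63 was above the background there. The 60 pairs also seen in watered B. oleracea gave 13.3% without control 3, 20% without drought 2 and 30% without both. No test was made of these counts. The reverse pattern, above the limit on all 4 controls and on at most 1 of 3 drought arrays, held at 2 of the 63 (E29/E30 and G13/G14), against 1.39% of the 288.

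The 4 pairs with the B. oleracea pattern in both species were A1/A2, J1/J2, C15/C16 and L3/L4. A1/A2 had net signals of 89.3, 225 and 68.6 units in droughted A. thaliana, against 9.88, 52.6, 30.6 and 12 units in controls. J1/J2 had 28.6, 179 and 82.1 units under drought and -109, 32.6, 346 and 29.7 units in controls. A1/A2 is the only one of the 4 at which control 3, otherwise bright, was not above its limit. C15/C16 had 9.18, 184 and 67.5 units under drought and 31.6, 34.9, 222 and 16.4 units in controls. L3/L4 had 34.8, 132 and 124 units under drought and -34.5, 7.67, 334 and 36.2 units in controls. Since the limits differ between arrays, a value counts against the limit of its own array, which was lowest on drought replicate 1.

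After Benjamini-Hochberg adjustment over all pairs of the membrane, limma found 0 of the 63 different between droughted and watered A. thaliana, and 0 of all pairs (0%). At an unadjusted p under 0.05, 4 of the 63 were higher, against 5.21% of all pairs, and 4 were lower, against 6.25%. The median log2 change was 0.04 over the 63 and -0.02 over all pairs of the membrane, with 33 of the 63 above 0. The lower and upper quartiles of the changes were -0.15 and 0.23, and the median SE was 0.23. By these counts the 63 pairs are near the background of the whole membrane. The 60 pairs also seen in watered B. oleracea had a median of 0.19, with 40 of 60 above 0.

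The smallest adjusted p-values among the 63 in A. thaliana were at K15/K16 and E29/E30, both with lower means under drought and neither past the threshold. K15/K16 was bright in watered A. thaliana, with net signals of 78, 214 and 396 units under drought, against 754, 756, 1142 and 813 units in controls. Its normalized signal was 7.10 ± 0.23 under drought (SD, n = 3) and 9.99 ± 1.90 in controls (SD, n = 4), a log2 change of -2.89 (SE 0.70, limma adjusted p = 0.112). The net signals do not overlap between groups, but after normalization control replicate 3, at 7.16, lies within the range of the drought arrays, 6.83 to 7.24. Without it the change was -3.74 (limma adjusted p = 4.24e-08), and without both it and drought 2 it was -3.62 (limma adjusted p = 3.35e-07). In each of the 22 alternatives the change was below 0. The limma adjusted p ran from 4.24e-08 to 0.624, a block for background level aside. That block leaves drought replicate 3 alone against the controls. In B. oleracea the same pair was dim, at 18.7, 22 and 40 units under drought, against 1.59, -3.84, -6.31 and -1.76 units in controls, at least 1.04-fold higher on the normalized scale.

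E29/E30 was above the limit on all 4 A. thaliana controls and on 1 of 3 drought arrays. Its net signals were 34.4, 60.2 and 21.1 units under drought, against 114, 90.4, 669.9 and 205 units in controls. On the normalized scale every drought array was below every control, at 6.48, 5.47 and 5.67 against 7.18, 6.77, 6.66 and 7.86, a log2 change of -1.25 (SE 0.30, limma adjusted p = 0.112). Groups that do not overlap, with drought lower, were found at 2 of the 63, against 3.91% of all pairs, and with drought higher at 0 of the 63, against 2.08%. In B. oleracea E29/E30 had 52.9, 27.3 and 41.6 units under drought, against -0.595, -13.5, -6.24 and -3.25 units in controls, higher under drought as the choice of pairs requires. The difference between species was not tested. The change at E29/E30 in A. thaliana passed without control 3 (-1.37, limma adjusted p = 0.0195) but not without both control 3 and drought 2. Its limma adjusted p ran from 0.0195 to 0.534 over the alternatives, the background-level block aside. The other pair with drought arrays below all controls, O15/O16, had 5.75, 5.82 and 5.79 under drought and 5.97, 6.07, 5.86 and 6.16 in controls (limma adjusted p = 0.663), and was above the limit on none of the drought arrays and on control 3 alone.

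G13/G14, G37/G38 and D1/D2 followed among the lower pairs, and none passed. G13/G14 had 6.04, 5.66 and 5.98 in normalized signal under drought and 6.96, 6.89, 5.97 and 6.51 in controls, a log2 change of -0.69 (SE 0.26, limma adjusted p = 0.368). G37/G38 had 5.92, 5.69 and 5.60 under drought and 5.99, 6.30, 6.16 and 5.88 in controls, a change of -0.34 (SE 0.15, limma adjusted p = 0.412), on signals that were above the limit on 1 drought array and 2 controls. At both pairs at least 1 control lies inside the drought range. D1/D2 had 6.37, 6.23 and 6.08 under drought and 5.37, 7.54, 7.72 and 7.43 in controls, a change of -0.79 (SE 0.43, limma adjusted p = 0.508). Control 1, which read -151 units over background there, is the array below all the others, and without it D1/D2 was called lower, at -1.37 (limma adjusted p = 0.00175). Over the alternatives other than the background-level block, the limma adjusted p of D1/D2 ran from 0.00175 to 0.878.

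Among the pairs that were higher in droughted A. thaliana, none passed either. A1/A2 had 7.35, 6.86 and 6.03 under drought and 5.83, 6.29, 5.57 and 5.84 in controls, a log2 change of 0.86 (SE 0.33, limma adjusted p = 0.368). P7/P8, above the limit on all 7 arrays, had 7.30, 6.47 and 7.60 under drought and 6.22, 6.52, 6.94 and 6.25 in controls, a change of 0.64 (SE 0.27, limma adjusted p = 0.412). Drought replicate 3 at A1/A2 and drought replicate 2 at P7/P8 lie inside the range of the controls. L3/L4 had 6.49, 6.15 and 6.32 under drought and 5.40, 5.71, 6.25 and 6.09 in controls, a change of 0.46 (SE 0.19, limma adjusted p = 0.412). L15/L16 had 6.09, 5.92 and 5.97 under drought and 5.37, 5.34, 6.10 and 5.43 in controls, a change of 0.43 (SE 0.18, limma adjusted p = 0.412). Control 3 is the highest control at both, and at L15/L16 it stands level with the highest drought array. Without it L15/L16 was called higher, at 0.61 (limma adjusted p = 0.0274). A33/A34 had 6.41, 7.91 and 7.00 under drought and 6.46, 6.28, 6.87 and 6.01 in controls, a change of 0.70 (SE 0.37, limma adjusted p = 0.492), and the groups overlap. Without drought replicate 2, the array with background 0, it was 0.29. P7/P8 passed without both control 3 and drought 2, at 1.07 (limma adjusted p = 0.0175). Over the alternatives other than the background-level block, the limma adjusted p ran from 0.0175 to 0.663 at P7/P8. At L15/L16 it ran from 0.0274 to 0.646.

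Over the 22 alternatives the changes at the 10 pairs named for A. thaliana kept their signs, while their sizes moved. At A1/A2 the log2 change was 0.28 without background subtraction and reached 2.47 with the authors' normalized volume. It was 0.14 with background level as a block, where drought replicate 3 alone stands against the controls. At A33/A34 it ran from 0.14 without background subtraction to 1.52 with the normalized volume. At G13/G14 it was -0.01 without background subtraction, against -0.69 with it. Without background subtraction the change was also smaller at E29/E30, -0.32, and at K15/K16, -1.23, and it was larger at D1/D2, -1.57.

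**Figure D3:**
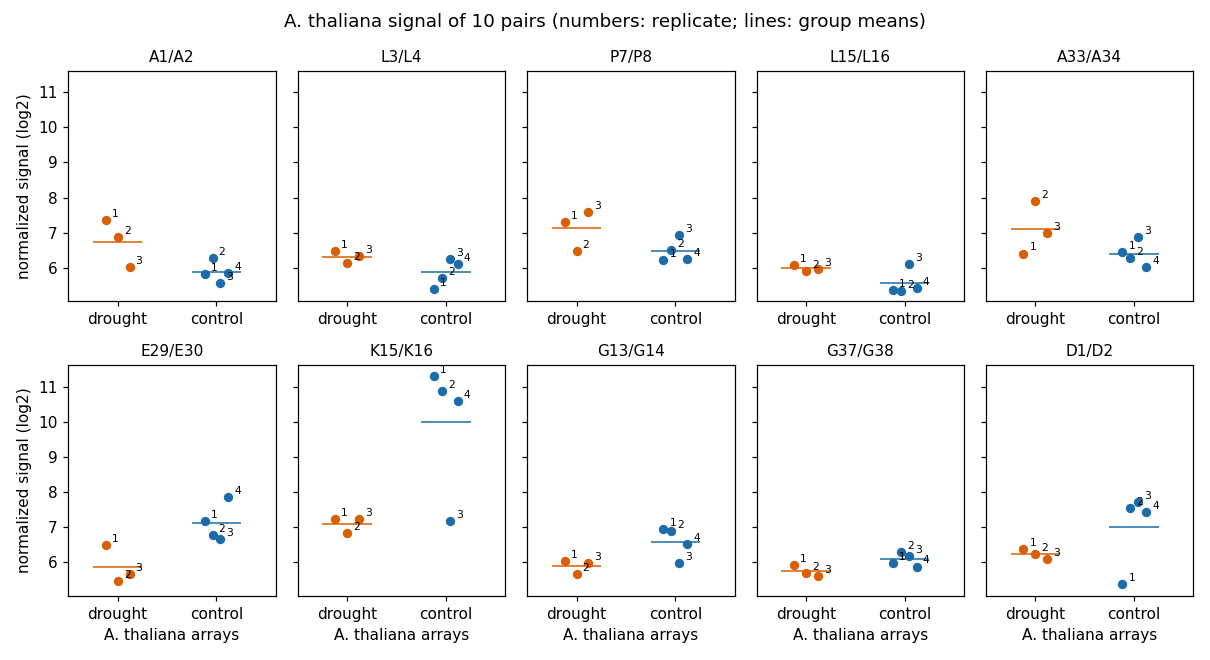
Normalized signal (log2, vertical axis) of 10 of the 63 pairs on the A. thaliana drought and control arrays, the 5 with the smallest unadjusted p for higher (top) and for lower (bottom) signal under drought. Numbers are replicates and lines are group means. K15/K16 shows controls 1, 2 and 4 between 10.60 and 11.31 with control 3 at 7.16 beside the drought arrays.

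The 63 pairs were not spread evenly over the membrane. Of the 16 pairs in columns 1 and 2, at the left edge, 12 were among the 63, and of the 48 in columns 3 to 8, 15 were. Columns 17 to 26 held 3 of 72, columns 43 to 48 held 0 of 24, and columns 15 and 16 held 7 of 16. A further 20 lay at columns 27 to 42 of the odd-lettered rows, where E29/E30 to E35/E36 form a run of 4 neighbouring pairs. In all, 45 of the 63 had another of the 63 directly beside, above or below, against 98 of the 225 other pairs.

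At the left edge the image background differed between the groups. In columns 1 and 2 the median background was 107, 92.2 and 804 units on the B. oleracea drought arrays and 45, 50.7, 50.5 and 51.5 units on the controls. The median over the whole membrane was 101, 85.7 and 731 units under drought and 103, 97.2, 115 and 102 units in controls, so the edge read low on the controls and not on the drought arrays. The part of this in the choice of the 12 edge pairs was not tested. Without columns 1 and 2, 51 pairs remained, and 2 of them had the B. oleracea pattern in A. thaliana. No share over all pairs is given for that setting, so nothing is read from this count.

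**Figure D4:**
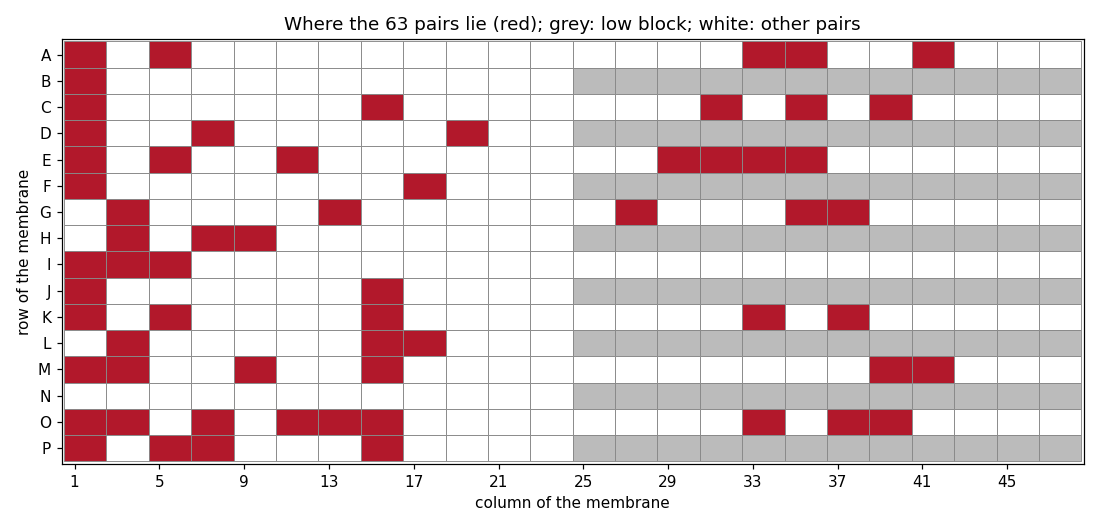
Map of the membrane, with column on the horizontal and row on the vertical axis. Each cell is a position pair, the 63 pairs are red, the low block is grey and all other pairs are white. The red cells gather in columns 1 and 2 (12 of 16 pairs) and at columns 27 to 42 of the odd-lettered rows (20 of 64 pairs).

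Position also went with the A. thaliana values. In columns 25 to 48, the 20 chosen pairs were above the limit at 19, 8 and 4 pairs on the drought arrays and at 12, 12, 19 and 2 pairs on the controls. The 76 other pairs of the odd-lettered rows there were above it at 32.9, 21.1 and 14.5% under drought and 19.7, 18.4, 52.6 and 5.26% in controls. As shares, the 20 chosen pairs stood at 95, 40 and 20% under drought and 60, 60, 95 and 10% in controls, above the other pairs of that region on all 7 arrays. All 20 were above the limit on the B. oleracea drought arrays by choice, against 32.9, 26.3 and 14.5% of the 76. The 76 include the 24 pairs of columns 43 to 48, of which 8.33 to 12.5% were above it on each A. thaliana array. The 16 chosen pairs in columns 9 to 24, at 87.5, 12.5 and 56.2% under drought and 18.8, 25, 93.8 and 25% in controls, stood below the 112 other pairs of their region on drought replicates 2 and 3 and on controls 1, 2 and 4. The 27 in columns 1 to 8 stood above the 37 others of their region on all 7 arrays, at 85.2, 44.4 and 77.8% under drought and 7.41, 44.4, 88.9 and 40.7% in controls.

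On both sides of the membrane the median A. thaliana drought change had the same sign for chosen and other pairs. In columns 1 to 8 the median log2 change was 0.19 over the 27 chosen pairs, 20 of them above 0, and 0.28 over the 37 others. In columns 25 to 48 it was -0.13 over the 20 chosen pairs, 7 of them above 0, and -0.07 over the 76 others. In columns 9 to 24 the signs differed. The median was -0.02 over the 16 chosen pairs, 6 of them above 0, and 0.05 over the 112 others, 62 of them above 0. On the left and right sides the region of a pair therefore moves with the sign of its A. thaliana change. The part of position in the single values above was not tested.

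The spots of a pair gave a further measure of the signal. Across the 63 pairs the Spearman correlation of the spots was 0.675, 0.950 and 0.694 on the A. thaliana drought arrays and 0.147, 0.357, 0.799 and 0.484 on the controls. Across the 225 other pairs it was 0.738, 0.936 and 0.623 under drought and 0.296, 0.443, 0.807 and 0.461 in controls. Drought replicate 2, with its background of 0, had the highest value for both. In B. oleracea it was 0.706, 0.565 and 0.329 across the 63 pairs on the drought arrays and 0.355, 0.119, -0.0218 and 0.0781 on the controls, below the value of the 225 others on all 7 arrays. Spots of a pair share the array and its local background, and these correlations are descriptions over pairs.

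The order of brightness within the 63 was only partly shared between arrays. The log2 ratio of net signal to limit correlated at 0.208 between B. oleracea drought replicates 1 and 2, 0.164 between 1 and 3, and 0.529 between 2 and 3 (Pearson, 63 pairs, all above the limit by choice). Mean normalized signal in droughted B. oleracea correlated with that in droughted A. thaliana at 0.548 over the 63 pairs and at 0.857 over the 225 others. With watered A. thaliana the values were 0.243 over the 63 and 0.743 over the others. The 60 pairs also seen in watered B. oleracea gave 0.795 with droughted and 0.704 with watered A. thaliana. The 63 were chosen on B. oleracea signal, so no difference between these sets is read as a result. The points share arrays and normalization, so these correlations are given without a test.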

How the data were processed

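The deposited files hold, for 768 positions on each array, the total and background intensity, a volume and a normalized volume, per the file headers. Volume matched total minus background, floored at 0, within 0.02 at all but 3 of 10752 spots. The deposited value table equals the normalized volume, with array medians of 13.1 to 555. It is linear, and its reference is unknown. The image software is not given in the sources used here, and the labels' 522 features were not reconciled with 384 pairs. Total intensity was background corrected by normexp with an offset of 17.7 units (the median total, 177 units, divided by 10), log2 transformed and quantile normalized across arrays. Spot values were then averaged within pairs. limma 3.58.1 (R 4.3.3) estimated 4 group means with a shared spread. The adjustment covered 384 pairs. The offset makes fold changes of dim pairs too small. The fit was tested on simulated data. Their noise was independent and had the same spread on every array, and the array differences seen here were left out. The 63 pairs and the naming rules were chosen with earlier results of these data known. Named were the 8 brightest pairs in droughted B. oleracea, 5 each way with the smallest A. thaliana p, pairs with the same pattern in A. thaliana, pairs above the limit on all 7 A. thaliana arrays, 4 nearest each side of the limit, and the 3 most like the brightest. O15/O16 was named after its values were seen. Gene and cell type lists could not be applied, since no position carries a name. The number of arrays limits the precision.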

Additional observations from a re-analysis of the deposited data

Results flagged for a closer look

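On the A. thaliana controls, control replicate 3 stood apart in the share of the 225 other pairs above the limit, at 71.6%, against 24.4% to 29.3% on the other controls. Control 3 was also the high value among the controls at L15/L16, with a normalized signal of 6.10 against 5.34 to 5.43. At D1/D2 the array that stood apart was control 1, at 5.37 against 7.43 to 7.72. Of 22 groups of 4 values examined for a lone extreme, 3 were marked, and chance marks about 1 in 20.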

How the results depend on the processing

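Under the alternatives that kept all arrays, the background-level block aside, the limma count in A. thaliana stayed at 0 pairs of the membrane. The 1 exception was array weights, with 6 pairs called, 1 of them among the 63 (K15/K16). Leaving out 1 A. thaliana array gave 0 to 20 called pairs, 0 to 3 of them among the 63; the highest counts came without control 3. Without both control 3 and drought 2, chosen after seeing the data, 12 pairs were called, 2 of them among the 63. With a replicate block 0 pairs were called. Deviations from the group mean correlated at 0.0145, 0.0620 and 0.0634 between same-numbered A. thaliana arrays. These values show no sign of pairing, but they cannot tell whether same-numbered arrays were handled together. A block for background level (median over 1000 units) leaves drought replicate 3 alone against the A. thaliana controls, so no count is given for it. The median log2 change over the 63 was 0.04, and it became -0.069 with cyclic loess and 0.20 with the authors' normalized volume; leaving out 1 array gave -0.02 to 0.09. The number of pairs chosen was 63 with the limit at the 90th percentile (53 shared), 0 at the 99th (so no A. thaliana value there), 37 with no control allowed above the limit and 30 (20 shared) when both spots had to pass; leaving out 1 B. oleracea array gave 68 to 105. The count with the B. oleracea pattern in A. thaliana, 4 of 63, was 1 at the 90th percentile, 2 with no control allowed and 2 when both spots had to pass. It was 2 without columns 1 and 2 (chosen after seeing the data) and 20 without both doubted arrays. Leaving out 1 array gave 4 to 14. Over the 288 pairs outside the low block the pattern held at 6.25% with all arrays. That share was 9.03% without control 3, 14.2% without drought 2 and 20.8% without both. For the other settings no such share is given, and nothing is read from their counts. The share difference ran from -3.17 to 38.6 points over the alternatives, against 11.6 with all arrays, so its size was not stable. Its sign changed without drought 1. The pooled SD of 29.4 points is a spread of single arrays with control 3 and drought 2 included, and is not the error of this difference. The causes were not tested.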
